A study of Homo sapiens with 18 samples.

Results

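Fatty acids enter a hepatocyte across the plasma membrane, are carried by binding proteins in the cytosol and are joined to coenzyme A before they can be stored in triglyceride, built into phospholipid or oxidised. The 9 genes described here encode these steps. They are the long-chain acyl-CoA synthetases ACSL1, ACSL3, ACSL4 and ACSL5, the fatty acid transport proteins SLC27A2, SLC27A4 and SLC27A5, the scavenger receptor CD36 and the liver fatty acid binding protein FABP1. They were chosen by symbol, with earlier results of these data known, and each symbol matched a single gene of the deposited count table, so that they are 9 of 61806 genes. All 9 passed the filter on low counts that left 19743 genes for testing.

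The samples are cultures of HepG2, a human hepatoma cell line that keeps many hepatocyte functions, and of APOA4-KO, a HepG2 line in which APOA4, the gene of an apolipoprotein, was edited with CRISPR-Cas9. The editing used 2 guides placed between exon 1 and exon 3, and edited cells were grown from single colonies, so that the comparison of the lines holds the edit and whatever else separates the colony from its parent. RNA was sequenced from each line at 0 h, when the cells were at 21% oxygen, and again when they had spent 24 h or 48 h at 1% oxygen. Each of the 6 groups has 3 libraries. No cells held at 21% oxygen for 24 h or 48 h were analysed here, so oxygen and time in culture cannot be told apart. The methods speak of independent experiments in general, but the sources used here do not say of these libraries whether those of a group came from separate cultures, and p-values measure only the spread between these libraries, which may be technical. In bulk RNA, fewer cells of a kind and less RNA per cell cannot be told apart either.

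Library totals ran from 76481820 to 91604947 counts, and the 9 genes had between 361 and 59171 counts per library. Levels are given as CPM, counts scaled to a common library total after TMM (a factor that offsets a few very abundant genes), and as mean ± SD with n = 3. Transcripts of APOA4 were still counted in APOA4-KO, at 7.71 ± 0.688 CPM at 0 h against 9.03 ± 0.608 CPM in HepG2 (log2 fold change -0.23, SE 0.08, adjusted p = 0.04). The level of APOA4 stayed at 7.94 ± 0.381 CPM at 24 h and 8.21 ± 0.49 CPM at 48 h in APOA4-KO, against 20.2 ± 0.711 and 20.1 ± 1.44 CPM in HepG2, so that it was 2.55-fold and 2.45-fold lower (log2 fold changes -1.35 and -1.29, SE 0.08, adjusted p = 6.6e-11 and 9e-11). These counts do not read the edit itself. The 10 hepatocyte markers searched, such as ALB, TTR and APOB, were all tested and summed to between 57733 and 86217 CPM in every library. All 10 hypoxia genes searched, such as CA9 and VEGFA, rose at both times in both lines (edgeR, adjusted p under 0.05). Their summed level at 0 h, 24 h and 48 h reached at most 937, 1914 and 2713 CPM in HepG2 and at least 1150, 3220 and 4364 CPM in APOA4-KO. Their sum was therefore higher in APOA4-KO at each time, and its part in the results below was not tested. Gene by gene, all 10 were higher in APOA4-KO at 0 h and 9 at 24 h, where 1 did not pass. At 48 h, 8 were higher and 2 were lower.

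As background, the long-chain synthetases differ in where they sit and in what they prefer. ACSL1 serves both triglyceride synthesis and oxidation in liver, ACSL3 is found on the endoplasmic reticulum and on lipid droplets, ACSL4 prefers arachidonic acid and other polyunsaturated chains, and ACSL5 lies on mitochondria and the endoplasmic reticulum. SLC27A2 and SLC27A5 combine transport with activation of very long chains and, for SLC27A5, of bile acids. FABP1 is one of the most abundant proteins of the hepatocyte cytosol and a known target of the PPAR nuclear receptors, which bind repeats of AGGTCA. Hypoxia-inducible factors prefer ACGTG, and also bind its less favoured relative GCGTG.

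On the GRCh38 build (GENCODE release 29), ACSL1 lies at chr4:184755595-184826818 and ACSL4 at chrX:109624244-109733403, both on the minus strand, and ACSL3 lies at chr2:222860934-222944639 and ACSL5 at chr10:112374018-112428380, both on the plus strand. SLC27A2 lies at chr15:50182196-50236395 and SLC27A4 at chr9:128340646-128361470, both on the plus strand, and SLC27A5 lies at chr19:58479512-58512413 on the minus strand. CD36 lies at chr7:80369575-80679277 on the plus strand, and FABP1 at chr2:88122982-88128116 on the minus strand. The exons of SLC27A5 share 1326 of their 8025 bases with genes of the opposite strand, mostly ZNF446, and those of SLC27A2 share 557 of 2802 bases with ATP8B4. Whether strand was used in the counting is not stated, so counts of these genes could include reads of their neighbours. The shared stretches were 102 bases for ACSL3 and 366 for ACSL5 on the opposite strand and 78 bases, with KCNE5, on the same strand for ACSL4.

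Promoter sequence is shown for FABP1, which had the largest difference between the lines at 48 h, for ACSL3 and ACSL4, which were higher in APOA4-KO at every time, and for SLC27A4, which was lower at every time. ACSL5 was also higher and CD36 also lower at every time, and their promoters are not printed. The sequences come from RefSeq (GRCh38.p14), cover the bases within 250 bases before the RefSeq start that lie outside the gene, and run 5′ to 3′ on the strand of the gene, and capitals mark, on either strand, the hypoxia and PPAR letters just named. FABP1 is read from chr2:88128117-88128312 on the minus strand, ACSL4 from chrX:109733404-109733507 on the minus strand, ACSL3 from chr2:222860786-222860933 on the plus strand and SLC27A4 from chr9:128340277-128340526 on the plus strand.
FABP1: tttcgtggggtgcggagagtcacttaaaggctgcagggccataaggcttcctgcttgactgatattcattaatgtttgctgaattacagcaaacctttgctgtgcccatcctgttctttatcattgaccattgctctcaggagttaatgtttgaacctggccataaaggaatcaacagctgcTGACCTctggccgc
ACSL4: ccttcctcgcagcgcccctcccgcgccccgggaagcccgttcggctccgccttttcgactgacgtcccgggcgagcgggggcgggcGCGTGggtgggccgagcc
ACSL3: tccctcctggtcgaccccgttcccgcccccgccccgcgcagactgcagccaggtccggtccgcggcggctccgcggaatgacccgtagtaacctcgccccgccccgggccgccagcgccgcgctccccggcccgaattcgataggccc
SLC27A4: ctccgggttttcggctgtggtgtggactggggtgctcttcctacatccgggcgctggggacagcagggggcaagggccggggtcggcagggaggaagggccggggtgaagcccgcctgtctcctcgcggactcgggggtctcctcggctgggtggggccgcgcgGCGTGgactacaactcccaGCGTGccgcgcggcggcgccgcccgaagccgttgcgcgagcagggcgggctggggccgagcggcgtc

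The capitals in FABP1 are AGGTCA read on the opposite strand, 68 to 63 bases before the start, and TATAAA lay 31 to 26 bases before it, past the end of the printed stretch. In ACSL4, GCGTG lay 164 to 160 bases before the start, and in SLC27A4 it occurred at 86 to 82 and at 67 to 63 bases. ACSL3 held GCGTG on the opposite strand at 95 to 91 bases, past the printed stretch. Over the 19 starts that RefSeq gives for the 9 genes, GCGTG occurred before 7, AGGTCA before 2 and ACGTG before none. The other AGGTCA lay 223 to 218 bases before a start of ACSL5. Of 35116 promoters of the same length, 32.2% held GCGTG, 12.1% AGGTCA and 18.5% ACGTG. The core letters TATAAA, also searched on both strands, were in 10.7% of promoters, and the CCAAT letters in 32.0%. Among the 9 genes, TATAAA also lay before starts of CD36, and CCAAT lay before starts of ACSL1, ACSL3, SLC27A5 and CD36. ACGTG also lies within CACGTG, which was in 6.34% of promoters, and none of these matches shows that a factor binds.

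Per length, as FPKM (counts scaled by gene length and library total), the order of the genes changed with line and time. In HepG2 at 0 h, ACSL4 stood highest at 22.6 ± 0.793 FPKM, followed by ACSL5 at 20.7 ± 0.755 and SLC27A4 at 17.1 ± 0.45. FABP1 came next at 14.2 ± 0.943, then ACSL1 at 10.3 ± 0.405, ACSL3 at 8.23 ± 0.24 and SLC27A2 at 7.20 ± 0.555 FPKM. CD36 and SLC27A5 were lowest, at 1.32 ± 0.01 and 0.947 ± 0.231 FPKM, and no neighbours in this order had overlapping libraries. FABP1 led in HepG2 at 24 h (45.0 ± 2.69 FPKM) and in APOA4-KO at 0 h (42.8 ± 1.84) and at 24 h (103 ± 12.8), whereas ACSL4 led at 48 h in HepG2 (30.7 ± 0.547) and in APOA4-KO (70.3 ± 0.673). The neighbours whose libraries overlapped were FABP1 and SLC27A4 in HepG2 at 48 h, SLC27A4 and ACSL3 in APOA4-KO at 0 h, SLC27A2 and ACSL1 in APOA4-KO at 48 h, and SLC27A5 and CD36 in all APOA4-KO groups. The level plot shows each gene in every library.

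**Figure D1:**
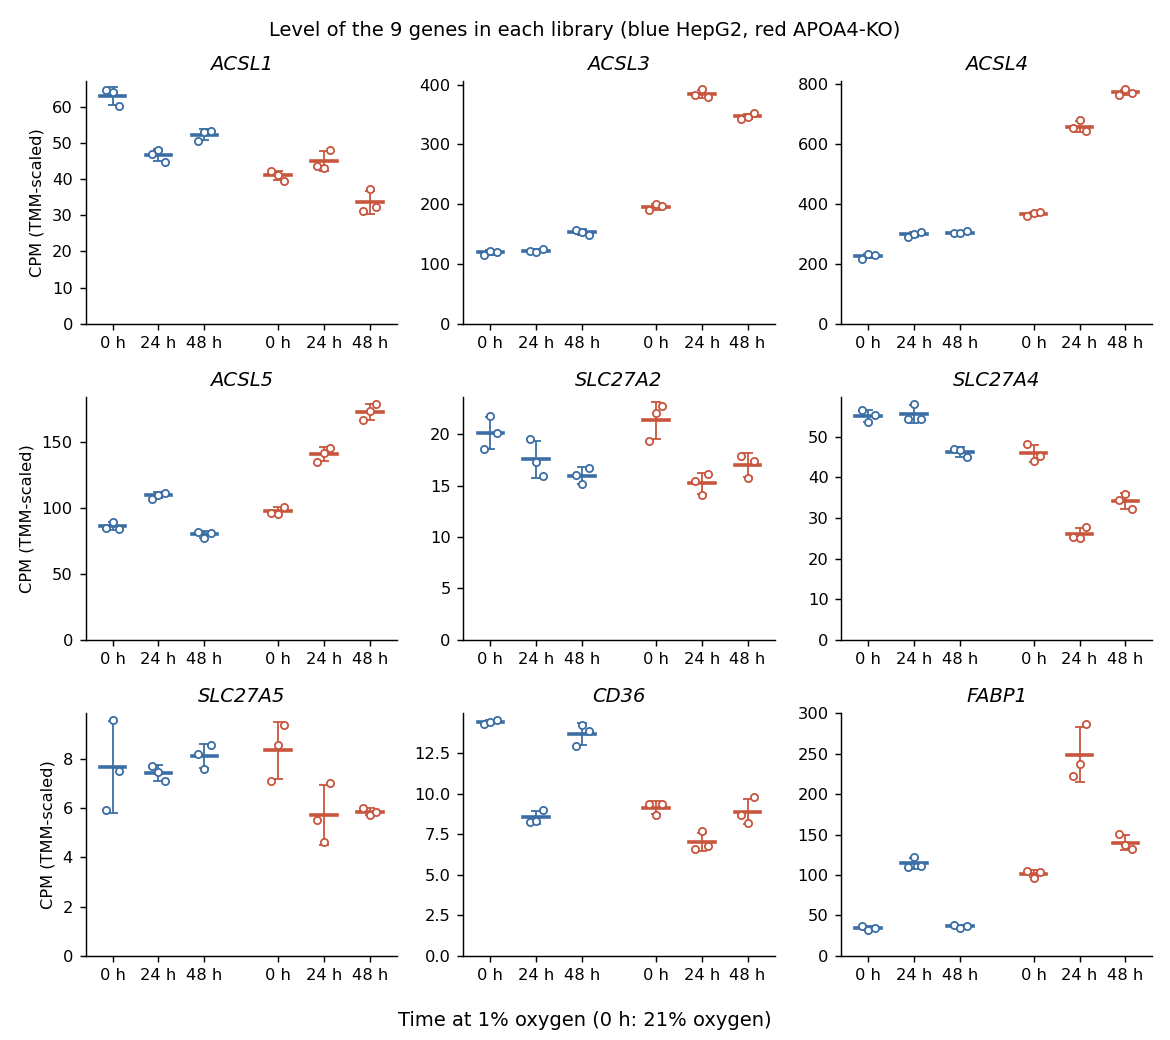
Level of each of the 9 genes in CPM (y axis, from 0) against line and time (x axis), where circles are libraries, thick lines the means of 3 libraries and thin bars the SD. FABP1 peaked at 24 h in both lines, ACSL3 and ACSL4 were higher in APOA4-KO at all 3 times, and SLC27A5 had the widest spread relative to its level.

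Between the lines at 0 h, before hypoxia, 4 of the 9 genes were higher in APOA4-KO and 3 were lower, while 30.5% of all tested genes passed the same test in either direction (12.9% higher, 17.6% lower). FABP1, ACSL3, ACSL4 and ACSL5 were higher, ACSL1, CD36 and SLC27A4 were lower, and SLC27A2 and SLC27A5 did not pass. Only FABP1 also reached an absolute log2 fold change of 1, a limit that 4.31% of tested genes passed. At 24 h the same 4 genes were higher and 2 were lower, against 48.1% of all genes (23.6% higher, 24.6% lower), and ACSL3, ACSL4 and FABP1 (higher) and SLC27A4 (lower) were past the fold limit, which 7.77% passed. At 48 h, 4 were higher and 4 lower, against 50.8% of all genes (23.5% higher, 27.3% lower), and FABP1, ACSL3, ACSL4 and ACSL5 were past the fold limit, which 13.6% passed. The median log2 fold change of the 9 genes was 0.12, -0.05 and 0.09 at 0 h, 24 h and 48 h, and that of all tested genes was -0.01, 0.01 and -0.04, so that the members moved apart rather than together. The groups did not overlap for 7, 7 and 8 of the 9 genes, compared with 43.9%, 55.4% and 58% of all tested genes. The 9 genes were not tested as a list against all genes, and nothing particular to them is read from these counts.

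**Figure D2:**
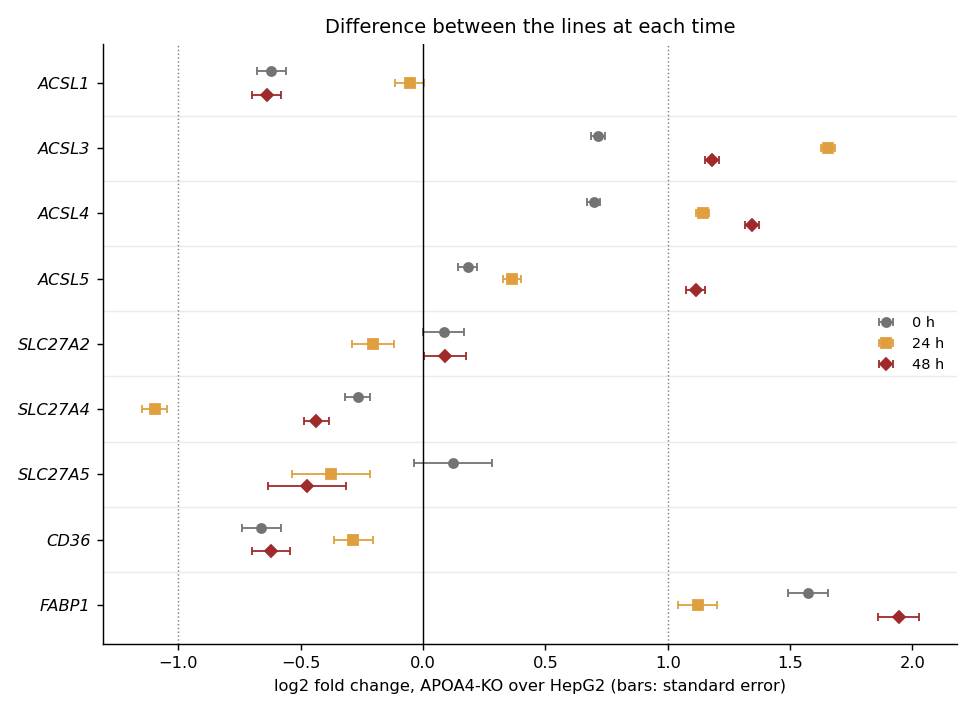
Log2 fold change of APOA4-KO over HepG2 (x axis) for the 9 genes (y axis) at 0 h, 24 h and 48 h, with bars for the standard error of the fit and dotted lines at the fold limit. ACSL3, ACSL4, ACSL5 and FABP1 lay to the right of 0 at all 3 times, whereas CD36 and SLC27A4 lay to the left. ACSL1 lay to the left at 0 h and 48 h, and its 24 h bar (-0.05, SE 0.06) crossed 0.

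Within each line, at most 1 member went past the fold limit in any change from 0 h. In HepG2, 3 members rose and 2 fell by 24 h, where 29.6% of all genes passed (11.4% rose, 18.3% fell). By 48 h, 2 members rose and 4 fell in HepG2, where 27.7% of all genes passed (13.1% rose, 14.6% fell). In APOA4-KO, 4 members rose and 4 fell at each time, where 44.4% of all genes passed at 24 h (21.5% rose, 22.8% fell) and 49.9% at 48 h (23.9% rose, 25.9% fell). FABP1 was the only member past the fold limit at 24 h in each line, where 3.08% and 5.88% of all genes were past it. By 48 h none was past it in HepG2 with edgeR or DESeq2 (2.18% of all genes), where the largest change of a member was 0.43, in ACSL4. ACSL4 alone was past it by 48 h in APOA4-KO (12.2%). The size of the change differed between the lines for 7 of the 9 genes by 24 h (5 with the higher value in APOA4-KO, 2 with the lower), against 32.2% of all genes (16.8% and 15.4%). By 48 h it differed for 5 (4 and 1), against 36.4% (18.6% and 17.8%), and none of these differences reached the fold limit, which 2.59% and 7.42% of all genes passed. The largest was 0.94, for ACSL3 by 24 h. The changes within a line share the 0 h libraries, so their values are given side by side.

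**Figure D3:**
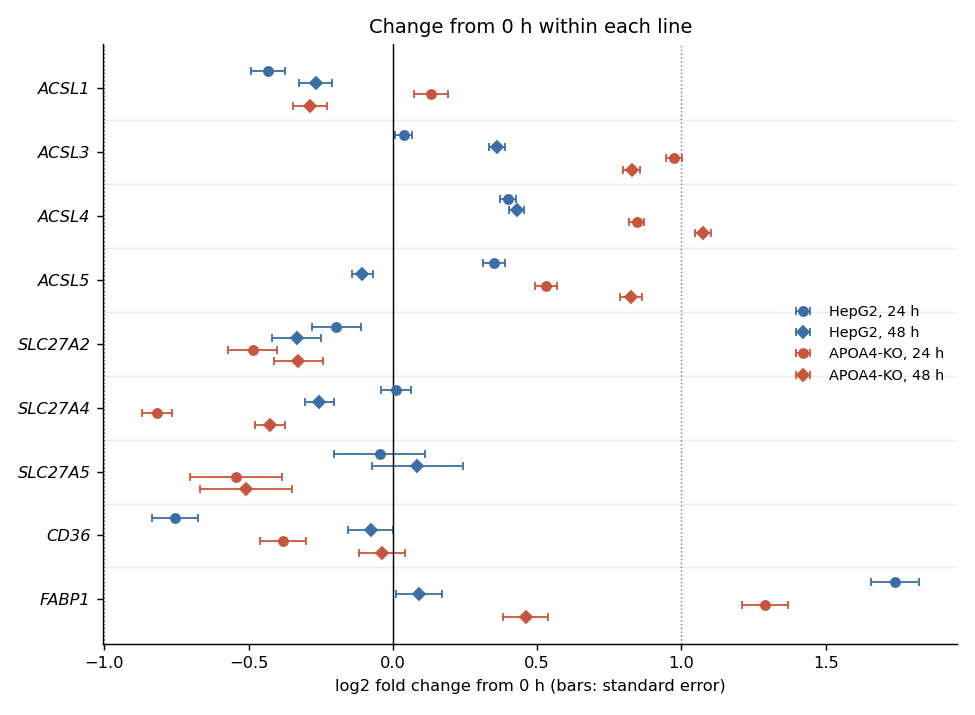
Log2 fold change from 0 h (x axis) of the 9 genes (y axis) in HepG2 (blue) and APOA4-KO (red) at 24 h (circles) and 48 h (diamonds), with bars for the standard error and dotted lines at the fold limit. The 24 h points of FABP1 lie beyond 1 in both lines, ACSL3 and ACSL4 rose further in APOA4-KO, and SLC27A4 and SLC27A5 lie left of 0 in APOA4-KO at both times.

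FABP1 (ENSG00000163586), the carrier of fatty acids in the hepatocyte cytosol, had the widest range of the 9 genes as a ratio of the highest to the lowest library. Its libraries in HepG2 stood at 36.4, 31.9 and 34.5 CPM at 0 h, 110.1, 122 and 111 CPM at 24 h, and 38.3, 34.0 and 37.1 CPM at 48 h. In APOA4-KO they stood at 105, 96.8 and 104 CPM at 0 h, 222, 238 and 287 CPM at 24 h, and 151, 138 and 132 CPM at 48 h. All APOA4-KO libraries were above all HepG2 libraries of the same time, and the 0 h and 48 h libraries of HepG2 overlapped. FABP1 was 2.97-fold higher in APOA4-KO at 0 h (log2 fold change 1.57, SE 0.08, adjusted p = 3.2e-11), 2.18-fold at 24 h (1.12, SE 0.08, adjusted p = 6.5e-10) and 3.84-fold at 48 h (1.94, SE 0.08, adjusted p = 3.2e-13).

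The time course of FABP1 was a peak at 24 h rather than a steady rise. It rose 3.34-fold by 24 h in HepG2 (log2 fold change 1.74, SE 0.08, adjusted p = 7e-12) and 2.44-fold in APOA4-KO (1.29, SE 0.08, adjusted p = 1.1e-10). At 48 h the difference from 0 h was 0.09 on the log2 scale in HepG2 (SE 0.08, adjusted p = 0.5) and 0.46 in APOA4-KO (SE 0.08, adjusted p = 6.6e-05). The change in APOA4-KO was smaller than that in HepG2 by 24 h (difference -0.45, SE 0.11, adjusted p = 0.0039) and larger by 48 h (0.37, SE 0.11, adjusted p = 0.014). With library totals in place of TMM, the 48 h difference was 0.20 (adjusted p = 0.18) and did not pass, and 2 fits to FPKM gave 0.20 as well.

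ACSL3 (ENSG00000123983), the synthetase of the endoplasmic reticulum and lipid droplet surface, differed most between the lines at 24 h. Its HepG2 libraries stood at 115, 122 and 120 CPM at 0 h, 122, 120 and 124 CPM at 24 h, and 157, 154 and 148 CPM at 48 h. The APOA4-KO libraries stood at 190, 200 and 197 CPM at 0 h, 383, 392 and 379 CPM at 24 h, and 343, 347 and 352 CPM at 48 h. The lowest APOA4-KO library of any time was thus above the highest HepG2 library, and the HepG2 libraries of 0 h and 24 h overlapped. ACSL3 was 1.64-fold higher in APOA4-KO at 0 h (log2 fold change 0.72, SE 0.03, adjusted p = 7.8e-13), 3.15-fold at 24 h (1.65, SE 0.03, adjusted p = 2.2e-18) and 2.27-fold at 48 h (1.18, SE 0.03, adjusted p = 1.1e-16).

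In time, ACSL3 rose in APOA4-KO by 24 h, whereas in HepG2 it had a detectable rise only by 48 h. The change to 24 h was 0.97 on the log2 scale in APOA4-KO (SE 0.03, adjusted p = 3.2e-15) and 0.04 in HepG2 (SE 0.03, adjusted p = 0.4). By 48 h it was 0.83 in APOA4-KO (adjusted p = 1.6e-14) and 0.36 in HepG2 (adjusted p = 1.6e-08), with an SE of 0.03 for both. The lines differed in these changes by 0.94 at 24 h (SE 0.04, adjusted p = 5.6e-12) and by 0.47 at 48 h (SE 0.04, adjusted p = 2.4e-08). The 24 h change in APOA4-KO lay at the fold limit, and without APOA4-KO 0 h replicate 2, APOA4-KO 0 h replicate 3 or APOA4-KO 24 h replicate 3 it was 1.01, 1.00 or 1.01, so that 2 members rather than 1 were past the limit.

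ACSL4 (ENSG00000068366), which prefers polyunsaturated chains, was the most abundant of the ACSL genes per length in all 6 groups. In HepG2 its libraries stood at 216, 231 and 229 CPM at 0 h, 289, 298 and 305 CPM at 24 h, and 301, 301 and 309 CPM at 48 h. In APOA4-KO they stood at 358, 368 and 371 CPM at 0 h, 652, 677 and 641 CPM at 24 h, and 762, 780 and 768 CPM at 48 h. The lines did not overlap at any time, and in APOA4-KO each time stood clear of the one before. The log2 fold change between the lines was 0.70, 1.14 and 1.34 at 0 h, 24 h and 48 h, each with an SE of 0.03, and the adjusted p was at most 5.9e-13.

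By 24 h, ACSL4 had risen 1.32-fold in HepG2 (log2 fold change 0.40, SE 0.03, adjusted p = 1.4e-09) and 1.80-fold in APOA4-KO (0.84, SE 0.03, adjusted p = 1.3e-14). By 48 h the rise was 1.35-fold in HepG2 (0.43, SE 0.03, adjusted p = 8.1e-10) and 2.11-fold in APOA4-KO (1.07, SE 0.03, adjusted p = 2.2e-16). The rise in APOA4-KO exceeded that in HepG2 by 0.45 at 24 h and by 0.65 at 48 h on the log2 scale, each with an SE of 0.04. ACSL4 was past the fold limit from 0 h to 48 h in APOA4-KO with TMM, but its change was 0.92 with library totals and 0.90 on log2(FPKM + 1), which left no member past the limit.

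ACSL5 (ENSG00000197142), the mitochondrial and endoplasmic reticulum synthetase, separated the lines mainly at 48 h. Its HepG2 libraries stood at 84.4, 89.5 and 83.9 CPM at 0 h, 107, 109.9 and 111 CPM at 24 h, and 81.5, 77.2 and 80.8 CPM at 48 h. In APOA4-KO they stood at 96.2, 95.6 and 101 CPM at 0 h, 135, 142 and 145 CPM at 24 h, and 166, 173 and 179 CPM at 48 h. ACSL5 thus went up and back in HepG2 while it was highest at 48 h in APOA4-KO. It was 1.14-fold higher in APOA4-KO at 0 h (log2 fold change 0.18, SE 0.04, adjusted p = 0.00089), 1.29-fold at 24 h (0.36, SE 0.04, adjusted p = 1.1e-07) and 2.16-fold at 48 h (1.11, SE 0.04, adjusted p = 1.3e-14).

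From 0 h to 24 h, ACSL5 rose by 0.35 on the log2 scale in HepG2 (SE 0.04, adjusted p = 6.2e-07) and by 0.53 in APOA4-KO (SE 0.04, adjusted p = 6.9e-10). From 0 h to 48 h it rose by 0.83 in APOA4-KO (SE 0.04, adjusted p = 9.5e-13). Its change in HepG2 was -0.11 (SE 0.04, adjusted p = 0.042), which passed barely and was lost in 20 of the 27 other fits. Without HepG2 0 h replicate 2 it was -0.06 (adjusted p = 0.33), and without HepG2 48 h replicate 2 it was -0.07 (adjusted p = 0.31). The lines differed in the 48 h change by 0.93 (SE 0.05, adjusted p = 8e-11).

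ACSL1 (ENSG00000151726), the main synthetase of triglyceride synthesis and oxidation in liver, went the other way. Its HepG2 libraries stood at 64.8, 64.1 and 60.3 CPM at 0 h, 47.1, 48.1 and 44.9 CPM at 24 h, and 50.6, 53.0 and 53.5 CPM at 48 h. The APOA4-KO libraries stood at 42.3, 41.2 and 39.7 CPM at 0 h, 43.6, 43.2 and 48.2 CPM at 24 h, and 31.3, 37.3 and 32.3 CPM at 48 h. The lines stood apart at 0 h and 48 h and overlapped at 24 h. ACSL1 was 1.54-fold lower in APOA4-KO at 0 h (log2 fold change -0.62, SE 0.06, adjusted p = 1.5e-07) and 1.56-fold lower at 48 h (-0.64, SE 0.06, adjusted p = 2.7e-08), and its difference at 24 h was -0.05 (SE 0.06, adjusted p = 0.51).

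ACSL1 fell in HepG2 by 24 h (log2 fold change -0.43, SE 0.06, adjusted p = 1.1e-05) and was still below 0 h at 48 h (-0.27, SE 0.06, adjusted p = 0.0017). In APOA4-KO the change to 24 h was 0.13 (SE 0.06, adjusted p = 0.084), and the change to 48 h was -0.29 (SE 0.06, adjusted p = 0.00045). The lines differed in the change to 24 h by 0.57 (SE 0.08, adjusted p = 2.8e-05). Their difference in the change to 48 h was -0.02 (SE 0.08, adjusted p = 0.9), whose sign turned with the scaling. The 24 h change in APOA4-KO passed in 7 of the 27 other fits, among them those without HepG2 0 h replicate 3, APOA4-KO 0 h replicate 1, APOA4-KO 24 h replicate 1, APOA4-KO 48 h replicate 1 or APOA4-KO 48 h replicate 2, where it lay between 0.13 and 0.17.

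Summed over ACSL1, ACSL3, ACSL4, ACSL5 and their scarce relative ACSL6, synthetase transcripts per length stood lowest at 0 h in both lines and higher in APOA4-KO throughout. In HepG2 the sum was 61.9 ± 1.61 FPKM at 0 h, 68.8 ± 1.00 FPKM at 24 h and 69.5 ± 0.768 FPKM at 48 h. In APOA4-KO it was 81.8 ± 1.76 FPKM at 0 h, 133 ± 2.76 FPKM at 24 h and 135 ± 1.61 FPKM at 48 h. The libraries of 24 h and 48 h overlapped in each line, whereas those of 0 h stood below both. ACSL4 made up 36.5% ± 0.833 of the sum in HepG2 at 0 h and 52.0% ± 0.556 in APOA4-KO at 48 h, and ACSL1 16.6% ± 0.73 and 3.69% ± 0.313 in the same groups. ACSL3 reached its largest share, 19.9% ± 0.237, in APOA4-KO at 24 h, and ACSL5 its largest, 36.5% ± 0.131, in HepG2 at 24 h. ACSL6 stayed at or below 0.144% in every library. No test was made of these sums and shares, which are given as descriptions.

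**Figure D4:**
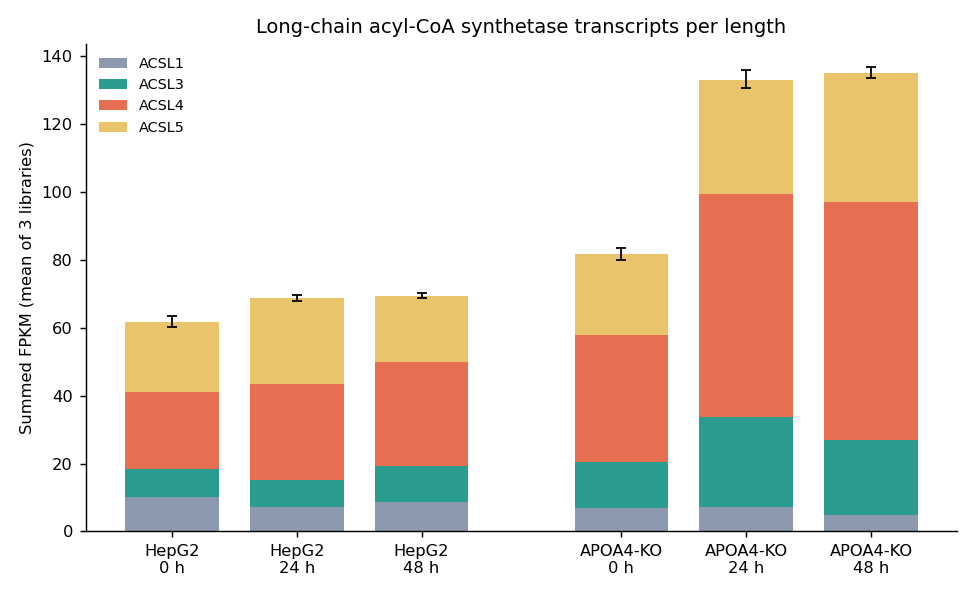
Summed FPKM of the long-chain acyl-CoA synthetases (y axis, from 0) for each line and time (x axis), stacked by gene from group means, with bars for the SD of the sum over 3 libraries. From 0 h to 48 h the sum went from 61.9 to 69.5 FPKM in HepG2 and from 81.8 to 135 FPKM in APOA4-KO. ACSL4 is the largest part of every bar, and FPKM carries no TMM scaling.

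Among the transport proteins, SLC27A4 (ENSG00000167114), a transporter with acyl-CoA synthetase activity, was lower in APOA4-KO at every time. Its HepG2 libraries stood at 56.6, 53.7 and 55.3 CPM at 0 h, 54.3, 58.1 and 54.5 CPM at 24 h, and 47.0, 46.8 and 44.9 CPM at 48 h. The APOA4-KO libraries stood at 48.3, 44.1 and 45.3 CPM at 0 h, 25.3, 25.0 and 27.7 CPM at 24 h, and 34.4, 35.9 and 32.1 CPM at 48 h. The lines did not overlap at any time, and the gap was widest at 24 h. SLC27A4 was 1.20-fold lower at 0 h (log2 fold change -0.27, SE 0.05, adjusted p = 0.00043), 2.14-fold lower at 24 h (-1.10, SE 0.05, adjusted p = 2.3e-12) and 1.35-fold lower at 48 h (-0.44, SE 0.05, adjusted p = 6.1e-07).

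SLC27A4 fell in APOA4-KO by 0.82 on the log2 scale by 24 h (SE 0.05, adjusted p = 1.4e-10) and by 0.43 by 48 h (SE 0.05, adjusted p = 9.5e-07). In HepG2 its change was 0.01 to 24 h (SE 0.05, adjusted p = 0.92) and -0.26 to 48 h (SE 0.05, adjusted p = 0.00072). Set against HepG2, the change in APOA4-KO was lower by 24 h (difference -0.83, SE 0.07, adjusted p = 5.2e-08), and by 48 h the value was -0.17 (SE 0.07, adjusted p = 0.077). That 48 h value passed in 4 of the 27 other fits, at -0.34 on log2(FPKM + 0.1) (adjusted p = 0.00047) and -0.21 without APOA4-KO 48 h replicate 2 (adjusted p = 0.041).

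SLC27A2 (ENSG00000140284), a transporter and very long-chain synthetase of liver and kidney, passed the test between the lines at no time. Its libraries spanned 15.2 to 21.8 CPM in HepG2 and 14.1 to 22.7 CPM in APOA4-KO, and the lines overlapped at every time. For 0 h, 24 h and 48 h, the log2 fold changes between the lines were 0.08, -0.21 and 0.09 (SE 0.08, 0.09 and 0.09), with adjusted p of 0.53, 0.056 and 0.43. It fell with time, by 0.33 by 48 h in HepG2 (adjusted p = 0.0057), and by 0.49 by 24 h (adjusted p = 8.8e-05) and 0.33 by 48 h (adjusted p = 0.0032) in APOA4-KO. Its change to 24 h in HepG2 was -0.20 (SE 0.08, adjusted p = 0.095), and the lines differed by -0.29 in the change to 24 h and by 0.00 in that to 48 h (adjusted p = 0.077 and 0.99). Some of these values were near the threshold: the 24 h comparison of the lines passed in 3 of the 27 other fits, the 24 h change in HepG2 in 4 and the line difference in the 24 h change in 4. Without HepG2 24 h replicate 3 the lines differed by -0.27 at 24 h (adjusted p = 0.019), and by -0.36 in the 24 h change, which was -0.34 without APOA4-KO 0 h replicate 1. Without HepG2 24 h replicate 1 the 24 h change in HepG2 was -0.28 (adjusted p = 0.027).

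SLC27A5 (ENSG00000083807), the bile acid and very long-chain synthetase of the hepatocyte, was scarce and variable. Its libraries stood at 5.91, 9.59 and 7.49 CPM in HepG2 at 0 h and at 7.08, 8.55 and 9.39 CPM in APOA4-KO at 0 h, and they overlapped. At 24 h they stood at 7.70, 7.48 and 7.09 CPM in HepG2 and at 5.501, 4.64 and 7.02 CPM in APOA4-KO, just without overlap. At 48 h they stood at 8.21, 7.60 and 8.57 CPM in HepG2 and at 5.997, 5.72 and 5.85 CPM in APOA4-KO, with a clear gap. The gene was 1.39-fold lower in APOA4-KO at 48 h (log2 fold change -0.47, SE 0.16, adjusted p = 0.019), and its value at 24 h was -0.38 (SE 0.16, adjusted p = 0.061), which passed in 4 of the 27 other fits, at -0.53 without APOA4-KO 24 h replicate 3 (adjusted p = 0.012) and -0.36 without HepG2 0 h replicate 1 or HepG2 0 h replicate 2. The 48 h call was lost without HepG2 48 h replicate 3 (-0.44, adjusted p = 0.057) or APOA4-KO 48 h replicate 2 (-0.46, adjusted p = 0.054).

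In APOA4-KO, SLC27A5 fell by 0.54 by 24 h (SE 0.16, adjusted p = 0.0086) and by 0.51 by 48 h (SE 0.16, adjusted p = 0.012). Its changes in HepG2 were -0.05 and 0.08 (SE 0.16 for both), with adjusted p of 0.89 and 0.78. Without APOA4-KO 0 h replicate 3 the falls were 0.43 and 0.40 and did not pass (adjusted p = 0.058 and 0.075), and without APOA4-KO 24 h replicate 2 the first was 0.41 (adjusted p = 0.059). The lines differed in the 48 h change by -0.59 (SE 0.22, adjusted p = 0.046), and it was lost in 17 of 27 other fits.

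CD36 (ENSG00000135218), the membrane receptor for long-chain fatty acids, was low in both lines and lower in APOA4-KO. Its HepG2 libraries stood at 14.3, 14.5 and 14.6 CPM at 0 h, 8.29, 8.35 and 9.02 CPM at 24 h, and 12.9, 14.3 and 13.9 CPM at 48 h. In APOA4-KO they stood at 9.35, 8.68 and 9.38 CPM at 0 h, 6.59, 7.68 and 6.80 CPM at 24 h, and 8.70, 8.23 and 9.78 CPM at 48 h. CD36 thus dipped at 24 h in both lines and came back. It was 1.58-fold lower in APOA4-KO at 0 h (log2 fold change -0.66, SE 0.08, adjusted p = 2.8e-06), 1.22-fold lower at 24 h (-0.28, SE 0.08, adjusted p = 0.0061) and 1.54-fold lower at 48 h (-0.62, SE 0.08, adjusted p = 1.9e-06).

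The fall of CD36 by 24 h was 0.76 on the log2 scale in HepG2 (SE 0.08, adjusted p = 4.7e-07) and 0.38 in APOA4-KO (SE 0.08, adjusted p = 0.00059), and the lines differed in it by 0.38 (SE 0.11, adjusted p = 0.014). At 48 h the change was -0.08 in HepG2 (SE 0.08, adjusted p = 0.56) and -0.04 in APOA4-KO (SE 0.08, adjusted p = 0.74). The lower level of CD36 in APOA4-KO at 24 h lost its call without APOA4-KO 24 h replicate 1 (-0.23, adjusted p = 0.05). It also lost it on FPKM values (-0.09, adjusted p = 0.077 with a pseudocount of 1). The line difference in the change to 24 h passed in all 27 other fits.

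CD36 is also made by macrophages, endothelium and adipocytes, so markers of those cells were read beside it. The 8 macrophage markers summed to between 1080 and 2850 CPM, nearly all of it LYZ, whose group means ran from 1039 to 2739 CPM. MARCO was at or below 3 counts in every library, and the group means of CSF1R, CD163 and ADGRE1 were at most 0.207, 0.156 and 0.159 CPM. The group means of CD14 ran from 4.59 to 7.73 CPM and those of PTPRC from 2.47 to 5.28 CPM, and neither passed the test between the lines at any time. CD68, a lysosomal protein, went from 28.7 ± 1.42 CPM at 0 h to 69.3 ± 3.94 CPM at 48 h in APOA4-KO and stood at 36.8 ± 2.2 and 42.3 ± 1.26 CPM in HepG2, so that it was lower in APOA4-KO at 0 h (log2 fold change -0.36, SE 0.06, adjusted p = 7.1e-05) and higher at 48 h (0.71, SE 0.06, adjusted p = 2.7e-09). The summed macrophage list was highest in APOA4-KO at 48 h, where CD36 was low, and its part in the CD36 result was not tested. The endothelial list summed to between 8.65 and 16.8 CPM, the fibroblast and stellate list to between 28.4 and 53.8 CPM, and the adipocyte list to between 3.598 and 8.26 CPM.

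The other genes of fatty acid activation, listed by family, give the setting of the 9. For all of these lists, the background at 48 h is that 50.8% of all tested genes passed between the lines, 23.5% higher and 27.3% lower. Of 6 close relatives (ACSL6, the remaining SLC27A genes and the ACSBG genes), 4 were tested, and 3 were higher in APOA4-KO at 48 h. SLC27A1, a transporter of muscle and fat, was 34.1 ± 2.32 CPM in APOA4-KO and 15.6 ± 0.727 CPM in HepG2 at 48 h (log2 fold change 1.13, SE 0.05, adjusted p = 1.9e-12). At 24 h it was lower in APOA4-KO (-0.58, SE 0.05, adjusted p = 3.3e-08). SLC27A1 thus took the direction of SLC27A4 at 24 h and the opposite one at 48 h.

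Of 13 short- and medium-chain synthetases, 12 were tested, and at 48 h 5 were higher and 3 lower in APOA4-KO (23.5% and 27.3% of all tested genes). ACSM3, a mitochondrial medium-chain synthetase, had the largest difference, 42.1 ± 2.23 CPM against 243 ± 2.51 CPM in HepG2 (log2 fold change -2.53, SE 0.04, adjusted p = 8.5e-19). ACSM3 was already lower at 0 h (-1.10, SE 0.04) and at 24 h (-1.58, SE 0.04), and it fell by 1.83 from 0 h to 48 h in APOA4-KO. ACSS1, the mitochondrial acetyl-CoA synthetase, was 38.6 ± 2.27 CPM against 106 ± 2.59 CPM at 48 h (-1.46, SE 0.04, adjusted p = 2.1e-15). In HepG2 it fell by 1.00 by 24 h (SE 0.04, adjusted p = 1.7e-12). ACSM2A was low, at 3.91 ± 0.519 CPM against 1.68 ± 0.64 CPM at 48 h (1.21, SE 0.26, adjusted p = 0.00059), and ACSM2A and ACSM2B are near-identical genes whose reads may be split.

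Of 16 binding proteins, 10 were tested, and at 48 h 4 were higher and 3 lower in APOA4-KO (23.5% and 27.3% of all tested genes). ACBD5, a peroxisomal acyl-CoA binding protein, was 17.5 ± 1.09 CPM against 8.51 ± 0.737 CPM at 24 h (log2 fold change 1.04, SE 0.08, adjusted p = 1.3e-09), and it rose by 1.11 from 0 h at both times in APOA4-KO. Of 13 thioesterases, which release fatty acid from coenzyme A, 9 were tested, and at 48 h 1 was higher and 5 were lower, against the same 23.5% and 27.3%. The higher one was BAAT, the bile acid conjugase, at 4.11 ± 0.0884 CPM against 1.23 ± 0.143 CPM (1.73, SE 0.26, adjusted p = 1.2e-05). THEM4, a mitochondrial thioesterase, was 2.47 ± 0.648 CPM against 5.54 ± 0.148 CPM (-1.17, SE 0.17, adjusted p = 1.1e-05). Of 11 genes of membrane uptake such as CAV1 and SCARB1, 9 were tested, and 3 were higher and 3 were lower at 48 h. None of them was past the fold limit in any comparison.

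**Figure D5:**
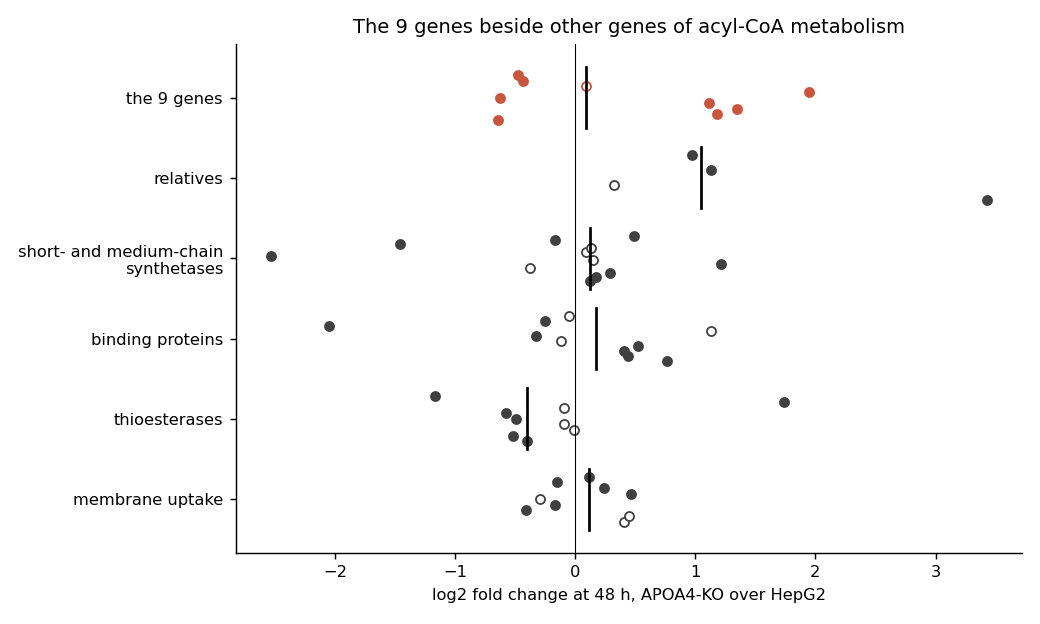
Log2 fold change of APOA4-KO over HepG2 at 48 h (x axis) for the 9 genes (red) and for each tested gene of the other lists (grey), with filled circles for an adjusted p under 0.05 and vertical strokes for the median of a list. The median of the 9 genes was 0.09 and that of the thioesterases -0.40, and ACSM3 is the synthetase furthest to the left.

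Over the 18 libraries, the genes whose patterns lay closest to those of the 9 were sought among the 9835 genes that averaged 500 or more counts. The measure was the root mean square difference in log2 CPM after each gene was centred on its own mean, and all libraries share the design, so it is a description. The closest was AKAP9 for ACSL3 (0.09, where the median over all candidates was 0.72), CHD2 for ACSL4 (0.11 against 0.69), ERBB3 for ACSL5 (0.06 against 0.46) and PABIR2 for ACSL1 (0.10 against 0.36). For the transporters it was EIF4EBP1 for SLC27A4 (0.08 against 0.44), NUP210 for SLC27A2 (0.10 against 0.32) and MRPL23 for SLC27A5 (0.15 against 0.36). IDH2 was the closest to CD36 (0.11 against 0.43) and IGF2 to FABP1 (0.34 against 1.07). The measure grows with the spread of a gene, whose SD over the libraries was 1.06 for FABP1 and 0.20 for SLC27A2, so its size does not rank the 9 genes by how closely another followed them. Among the 9 genes themselves, ACSL3 and ACSL4 were the closest pair, at 0.17, and CD36 and FABP1 the furthest apart, at 1.41.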

How the data were processed

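Per the labels and the methods of the study, reads were trimmed (fastp), aligned to GRCh38.p13 (HISAT2) and counted on Ensembl genes by the authors. The paper names featureCounts for the counting, and the submitters' processing notes name StringTie. The deposited counts are whole numbers per gene, not normalized, for 61806 genes, 28200 of them without a count. The deposited FPKM values, by the authors, cover 33601 genes and divide by gene length and library total. Counts of 4 and 8 exceeded their neighbours by ratios of 2.66 to 3.12 and of 2.06 to 2.55 in every library, so a count need not be a single read pair.

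Groups came from the titles. Counts were fitted with edgeR 4.0.16 in R 4.3.3 (filterByExpr on 6 groups, TMM, quasi-likelihood, 1 coefficient per group, 18 libraries). SE is the absolute log2 fold change divided by the square root of F. The 9 comparisons were the lines at each time, each line's changes from 0 h, and the line difference in those changes. A gene passed at a Benjamini-Hochberg adjusted p under 0.05 over 19743 genes, and the fold limit was an absolute log2 fold change of 1. Floors were 3 counts per library. The procedure was tested on simulated data. Chi-square per gene between libraries of a group, which takes a count as a read, was 10.3 to 23.4 over 18 pairs, and none was treated as a repeat.

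The 9 genes are always named. Another gene of the pathway lists is named if it is past the fold limit in a line comparison or a change from 0 h and its mean is at least 1 CPM, at most 3 per list. For likeness the closest gene is named. The members and lists were chosen with earlier results of these data known. Alternatives were median-of-ratios size factors, library totals alone, no filter, DESeq2 1.42.0, counts divided by 4, limma 3.58.1 on log2(FPKM + 1) and log2(FPKM + 0.1) for genes with a mean of at least 0.1 FPKM, a replicate block, the compared groups alone, and each library left out.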

Additional observations from a re-analysis of the deposited data

Results flagged for a closer look

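The lines differed in 12 changes from 0 h by the edgeR test of the difference itself, and each value here is the log2 change in APOA4-KO minus that in HepG2. By 24 h the synthetase differences were 0.57 for ACSL1, 0.94 for ACSL3, 0.45 for ACSL4 and 0.18 for ACSL5, of which that of ACSL5 was smallest (adjusted p = 0.012). That of ACSL5 passed in 26 of the 27 other fits. Also by 24 h, the difference was -0.83 for SLC27A4, 0.38 for CD36 and -0.45 for FABP1. By 48 h it was 0.47 for ACSL3, 0.65 for ACSL4, 0.93 for ACSL5, -0.59 for SLC27A5 and 0.37 for FABP1. In these data 32.2% of all tested genes passed the same test at 24 h and 36.4% at 48 h, against 7 and 5 of the 9 genes. Among the genes whose difference passed at both times, only FABP1 had opposite signs at the 2 times, and its 48 h value passed in 24 of the 27 other fits. The positive value of CD36 is a smaller fall in APOA4-KO, where it started lower. The 10 hypoxia genes rose from 0 h in both lines. By the same test of the difference, 8 had the higher change in APOA4-KO and 2 the lower by 24 h. By 48 h, 7 had the higher and 2 the lower, and their part was not tested.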

How the results depend on the processing

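Of 81 gene comparisons, 60 passed, and 52 of these passed in every one of the 27 other fits. The remaining 8 lost the call in at least 1 fit, and none of 1620 refits of passing results turned sign. Of the 21 that had not passed, 9 passed in at least 1 fit. The larger changes in the counts of members past the fold limit were as follows, and smaller ones are not all listed. The 48 h line comparison fell from 4 to 2 with limma on log2(FPKM + 1), where ACSL3 and ACSL5 were at 0.97 and 0.93. The APOA4-KO change to 48 h fell from 1 to 0 with library totals alone and with limma on log2(FPKM + 1) and log2(FPKM + 0.1). The APOA4-KO change to 24 h ranged from 1 to 2 when a library was left out. Over the 27 other fits, SLC27A4 between the lines at 24 h ranged from -1.13 to -0.95, so it was not past the limit in every fit. The cause of these changes was not tested. Library totals in place of TMM moved the median log2 fold change of all genes from -0.04 to -0.19 in the 48 h line comparison, from -0.07 to -0.23 in the APOA4-KO change to 48 h and from -0.04 to -0.21 in the 48 h line difference in change.

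The results that turned sign had not passed. With library totals, log2(FPKM + 1) and log2(FPKM + 0.1), ACSL1 between the lines at 24 h was 0.012, 0.011 and 0.012, and SLC27A2 at 48 h -0.061, -0.051 and -0.060. In the HepG2 change to 24 h, the same fits gave -0.036, -0.0308 and -0.034 for ACSL3 and -0.062, -0.059 and -0.062 for SLC27A4. In the 48 h line difference in change they gave -0.17, -0.15 and -0.17 for SLC27A2 and -0.13, -0.055 and -0.12 for CD36. Counts divided by 4 gave -0.00163 for SLC27A2, and ACSL1 was 0.0042 with size factors, 0.0044 with DESeq2 and 0.016 with the compared groups alone, which also gave 0.0089 for SLC27A5 in the HepG2 change to 24 h. With a library left out, SLC27A5 ranged from -0.033 to 0.31 between the lines at 0 h, from -0.19 to 0.15 in the HepG2 change to 24 h and from -0.051 to 0.29 to 48 h. SLC27A4 ranged from -0.024 to 0.037 in the HepG2 change to 24 h and CD36 from -0.11 to 0.017 in the APOA4-KO change to 48 h. In the 48 h line difference in change, the ranges were -0.10 to 0.032 for ACSL1, -0.063 to 0.060 for SLC27A2 and -0.032 to 0.094 for CD36.

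Whether equal replicate numbers pair the libraries is not stated. Over 45 same-numbered pairs the correlation of deviations from the group means lay between -0.144 and 0.0511. Over 90 other pairs it lay between -0.0815 and 0.145, and 0 of 18 libraries were closest to their own number. No pairing was seen in these values, which cannot show that there was none. With the replicate block, the 0 h line comparison kept a count of 7 members, and the 48 h line difference of SLC27A5 was -0.59 (adjusted p = 0.051), the single call that changed. SLC27A5 and CD36 have the fewest counts of the 9 genes, and SLC27A5 had the largest SE, 0.16 between the lines at each time. The SE of CD36 was 0.08 at each time.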
